A study of Mikania micrantha with 15 samples.

Results

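Leaf and shoot apex of Mikania micrantha, a climbing vine of the daisy family, were compared by RNA sequencing. The comparison used 6 of the 15 libraries of the series, 3 of leaf and 3 of shoot apex, chosen by their organ label alone. The other 9 libraries, 3 each of flower, root and stem, entered the shared estimate of the spread and served to place the leaf and apex genes among the other organs. All libraries came from wild-type vines grown from cuttings under 1 regime, so organ is the one difference between groups that the labels name. Cuttings were rooted in water until their roots measured about 4 to 5 cm. After rooting, the plants were kept for 60 days in Hoagland solution, which supplies mineral nutrients. Days had 16 h of light and 8 h of dark, and the temperature was 24 °C. The labels do not give the age or position of the leaves, how much of the tip was taken as apex, or whether the replicates of an organ were different plants. Each p-value is therefore set against library-to-library spread only, part or all of which could be technical.

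An expanded leaf is the organ in which carbon is fixed, and most of its cells have stopped dividing. The shoot apex holds the meristem, a small dome of dividing cells, together with the youngest leaf primordia that form on its flanks. A comparison of both therefore sets leaves, here of an age the labels do not give, against the tissue in which leaves start. Both samples are mixtures of cell types, so fewer cells of a type and less RNA per cell cannot be told apart.

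The deposited table lists 41487 gene IDs, and 27055 of them had enough reads to be tested. The IDs are locus tags that the table does not pair with gene names, and no annotation was used here. Leaf markers, meristem markers and gene families could therefore not be looked up, and the organ labels could not be checked against marker genes. Genes are described by ID, level and pattern. Levels are given as CPM, read counts divided by the library's size, where the size was corrected for composition by edgeR's TMM factor. CPM are not divided by gene length, so a difference in CPM between 2 genes is one of reads and not of transcript number.

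Library totals were 7952050 to 12001006 counts in leaf and 11023970 to 12817396 in shoot apex. The leaf replicates differed more among themselves than the apex replicates did, with a biological coefficient of variation of 36.15% in leaf and 14% in shoot apex. A library was taken as apart for a gene when it lay over 4-fold above or below both other replicates, on CPM plus 0.5. Leaf replicate 1 was high in this way for 151 IDs and low for 61. Leaf replicate 2 was high for 16 and low for 29, and leaf replicate 3 was high for 4 and low for 1. Shoot apex replicate 1 was low for 114 IDs and high for 11, while apex replicates 2 and 3 together were apart for 2. The numbers of calls and several other results are given with and without leaf replicate 1 or apex replicate 1.

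Of the IDs tested, 35.5% differed between leaf and shoot apex, 4657 of them higher in leaf and 4948 higher in shoot apex. Calls needed a fitted fold of 2 or more together with a Benjamini-Hochberg adjusted p under 0.05, taken over all IDs tested, in the quasi-likelihood test of edgeR. The calls were 17.2% of the genes tested in the direction of leaf and 18.3% in the direction of shoot apex. The 2 directions were close to balanced, and which was ahead depended on the scaling. With plain library totals in place of TMM, 3637 genes (13.4%) were higher in leaf and 6226 (23.0%) in shoot apex, 36.5% in all, and the median over all log2 fold changes stood at -0.30, against -0.06 with TMM. With RLE factors the order turned, as 5059 genes (18.7%) were leaf-higher and 4595 (17.0%) apex-higher, 35.7% in all. Without leaf replicate 1 there were 4091 calls (14.7%) higher in leaf and 4353 (15.7%) higher in shoot apex, 30.4% in all.

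A gene that was not called was not for that reason shown to be even. The 95% interval of the fold lay within 2-fold in both directions for 7071 genes, 26.1% of those tested, and none of these was called. IDs without a read in either organ were given an interval of no width. They are counted among the 7071, though evenness was not measured for them. Of the 7071, 316 averaged under 1 CPM over both organs. A further 10379 genes, 38.4%, were neither called nor placed within 2-fold. The median width of their interval was 1.75 on the log2 scale, against 0.88 for the genes placed within 2-fold. The genes placed within 2-fold held 33.3, 38.2 and 35.9% of the counts in leaf replicates 1, 2 and 3, and 41.9 to 42.5% of the counts in the apex libraries.

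**Figure D1:**
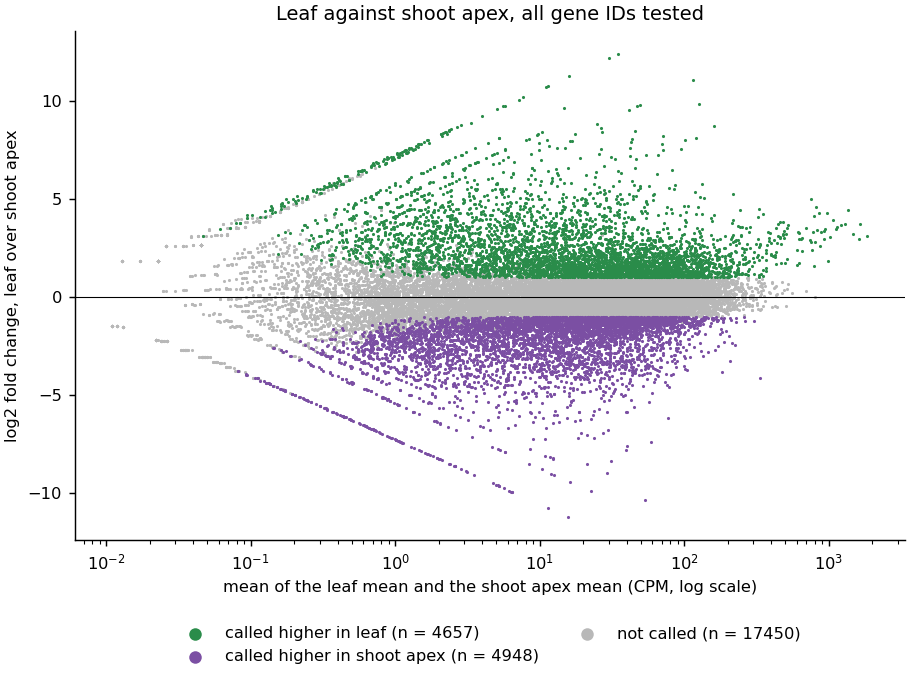
Log2 fold change of leaf over shoot apex for each gene ID tested, against the mean level of both organs in CPM on a log scale. The 4657 IDs called higher in leaf lie above 0 and the 4948 called higher in shoot apex lie below. At the right, above 1000 CPM, every point lies above 0.

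Leaf-higher genes carried far more of the leaf libraries than apex-higher genes did of the apex libraries. IDs called higher in leaf took 41.6, 27.9 and 35.5% of the counts in leaf replicates 1, 2 and 3, and 10.9, 9.87 and 9.98% in apex replicates 1, 2 and 3. IDs called higher in shoot apex took 3.29, 6.67 and 4.56% of the leaf counts and 19.0, 19.7 and 19.4% of the apex counts. These sums describe the calls and do not test them, since the genes were picked on these libraries. The 3 apex libraries lay close together on each sum, whereas leaf replicate 1 lay well above leaf replicate 2 on the first.

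The read-rich end of the transcriptome leaned to leaf. Among the 1969 IDs with an average of at least 100 CPM over both organs, 520 were called higher in leaf and 116 in shoot apex. The excess in leaf was kept with plain library totals, at 401 against 176, with RLE factors, at 562 against 97, and without leaf replicate 1, at 487 against 82. Each of these counts is over the same 1969 IDs, picked on the TMM-scaled levels with leaf replicate 1 included. The part of that library in the picking was therefore not removed. Between 1 and 10 CPM the order was the other way, as 1459 IDs were leaf-higher and 1893 apex-higher among 7351 tested. These were 19.8 and 25.8% of that class, both above the 17.2 and 18.3% of all IDs tested. Between 100 and 1000 CPM the shares were 26.0% leaf-higher and 5.92% apex-higher. Of the leaf-higher genes, 925 or 19.9% reached 100 CPM in leaf, whereas 363 or 7.34% of the apex-higher genes did so in shoot apex. No apex-higher gene reached 1000 CPM, and the highest mean was 634 CPM.

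A group of 37 IDs was called higher in leaf and exceeded 1000 CPM there. They took 8.66, 3.40 and 6.24% of the counts in leaf replicates 1, 2 and 3, and 1.02, 0.661 and 0.728% in apex replicates 1, 2 and 3. The leaf libraries of all 37 lay above the apex libraries, as did those of 94.2% of all leaf-higher IDs. Their log2 fold changes ran from 1.60 to 4.99 with a median of 3.29, beside 2.02 over all leaf-higher IDs. The largest edgeR adjusted p among them was 0.00673. The 37 were picked as called and abundant in leaf, so these values describe them and are no further test. All 37 stayed called without leaf replicate 1, without leaf replicate 2 and without leaf replicate 3. Leaf replicate 2 was the lowest leaf library for 36 of them and leaf replicate 1 the highest for 32. Leaf was the highest of the 5 organs for 34 of the 37, root for 2 and stem for 1. In root replicates 1, 2 and 3 they took 1.27, 6.12 and 4.34% of the counts, so that root replicates 2 and 3 lay above leaf replicate 2. In stem they took 2.38 to 5.73%, and in flower 1.19 to 1.81%.

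The most abundant IDs took a larger part of the leaf reads than of the apex reads. The 100 most abundant IDs of each library held 13.8, 6.92 and 10.8% of the counts in leaf replicates 1, 2 and 3, and 4.10, 3.95 and 4.16% in apex replicates 1, 2 and 3. Each leaf library lay above each apex library. The means were 10.5 ± 3.47% in leaf and 4.07 ± 0.109% in shoot apex (SD, n = 3 each; exact two-sided permutation test, p = 0.1, the smallest p that 3 against 3 libraries can give). A share of 50% of the counts was reached with 2164, 2966 and 2537 IDs in leaf replicates 1, 2 and 3, and with 3607, 3704 and 3562 IDs in the apex libraries. Fewer IDs were read in leaf. With every library thinned to 7952050 counts, 27252, 27943 and 27560 IDs had a read in leaf replicates 1, 2 and 3, against 28420, 28545 and 28216 in apex replicates 1, 2 and 3. The same exact test gave p = 0.1 for the thinned number of IDs.

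Most differences were moderate in size, and in the main fit the steepest ones leaned to leaf. A fitted fold of 2 to 4 was found for 2309 leaf-higher and 2551 apex-higher IDs, which is 49.6% of the leaf-higher calls and 51.6% of the apex-higher calls. At 16-fold and over there were 713 leaf-higher IDs, 15.3% of that direction, and 536 apex-higher IDs, 10.8%. Among these, 144 leaf-higher IDs had no read in shoot apex and 137 apex-higher IDs had no read in leaf. Their fitted folds depend on the prior count and are no measured folds. The fold classes were counted in the main fit alone. Whether the lean to leaf holds without leaf replicate 1 or with another scaling was not tested.

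**Figure D2:**
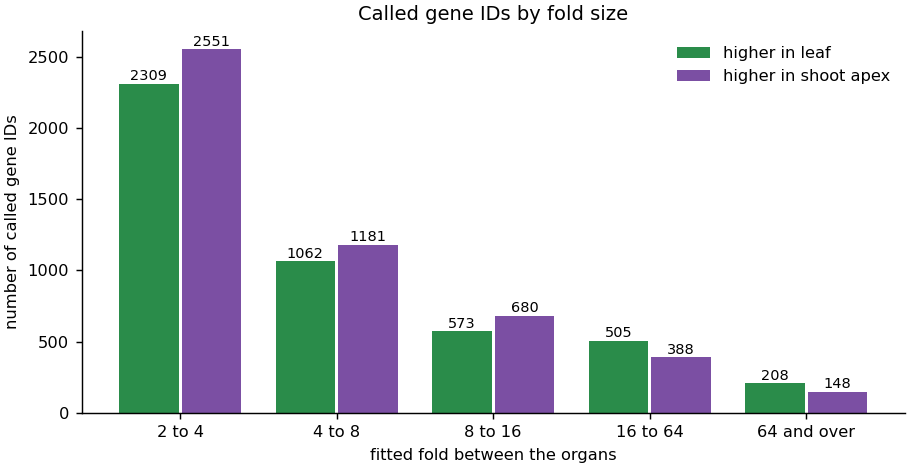
Number of called gene IDs by fitted fold between the organs, with IDs higher in leaf as the left bar of each pair and IDs higher in shoot apex as the right bar. Apex-higher IDs are more numerous in each class under 16-fold, and leaf-higher IDs in both classes from 16-fold up. All counts are from the main fit, with leaf replicate 1 included.

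Few IDs were read in 1 of the organs and not in the other. At least 1 CPM of the plain library total in all 3 leaf libraries, with no read in shoot apex, was found for 41 IDs. The reverse pattern, with at least 1 CPM in all 3 apex libraries and no read in leaf, was found for 67 IDs. The absence is limited by depth. A total of 3 reads over the 3 libraries would be 0.0839 CPM in shoot apex and 0.0999 CPM in leaf, and these limits cover counting error only. Levels were low in both sets, with a median of 3.30 CPM in leaf for the leaf set and 3.52 CPM in shoot apex for the apex set. In the leaf set 7 IDs, and in the apex set 12, came to 10 CPM or more.

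Most IDs of either set were read in a further organ. Only 3 of the 41 leaf IDs and 0 of the 67 apex IDs were free of reads in all 9 flower, root and stem libraries. A mean of at least 1 CPM was reached in flower by 14 of the leaf set and 29 of the apex set. In root it was reached by 12 of the leaf set and 28 of the apex set, and in stem by 7 and 21. Both counts moved with single libraries. Without leaf replicate 1 the apex set had 109 IDs, and without leaf replicate 2, the deepest leaf library, it had 141. The leaf set had 86 IDs without apex replicate 1, 67 without apex replicate 2 and 63 without apex replicate 3. Of the 42 IDs gained without leaf replicate 1, 29 had 1 to 3 reads in that library.

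The 4 IDs given in full were taken by rule, 2 in each direction. The first is the called ID with the largest difference in mean CPM. The second is the ID with the largest fold among called IDs that had at least 100 CPM in the higher organ, a read in all 6 libraries and no overlap between the organs. Over all genes tested, 62.1% had no overlap between the leaf and the apex libraries.

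E3N88_24217 was at 4935, 1296 and 3633 CPM in leaf replicates 1, 2 and 3, against 484, 332 and 332 CPM in apex replicates 1, 2 and 3. Each leaf library lay above each apex library, and leaf replicate 2 was the lowest of the leaf libraries. The log2 fold change was 3.10 ± 0.84 (SE, edgeR adjusted p = 0.00673). Leaf was not its main site. It was at 2265 to 5038 CPM in flower, 2741 to 35389 in root and 2807 to 23573 in stem, and shoot apex had the lowest level of the 5 organs.

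E3N88_37335 was at 521, 140 and 296 CPM in leaf replicates 1, 2 and 3, against 1.29, 0.529 and 0.393 CPM in the apex replicates. The apex values rest on 18, 8 and 5 reads. The log2 fold change was 8.73 ± 0.62 (SE, edgeR adjusted p = 1.9e-07), with a 95% interval of 7.40 to 10.05. Without apex replicate 1 the log2 fold change was 9.46. Shoot apex was the lowest organ for this ID, which was at a mean of 155 CPM in stem, 83.5 in root and 32.4 in flower.

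E3N88_34610 was at 42.6, 36.8 and 30.1 CPM in leaf replicates 1, 2 and 3, against 604, 605 and 691 CPM in apex replicates 1, 2 and 3. The log2 fold change was -4.12 ± 0.24 (SE, edgeR adjusted p = 4.51e-08). Shoot apex was the highest organ in the mean, flower came next at 421 ± 71.8 CPM (SD, n = 3), and leaf was the lowest of all 5. Within leaf and within shoot apex the libraries stayed close together.

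E3N88_16487 was at 1.78, 0.233 and 0.306 CPM in leaf replicates 1, 2 and 3, against 110, 119 and 120 CPM in the apex replicates. The leaf values rest on 13, 3 and 3 reads. The log2 fold change was -7.42 ± 0.48 (SE, edgeR adjusted p = 9.28e-08), while it was -8.71 without leaf replicate 1 and -6.82 without leaf replicate 2. Its highest level was in root, at 302 ± 104 CPM (SD, n = 3), with 67.2 CPM in stem and 34.9 in flower. Leaf was thus the one organ with a mean under 10 CPM.

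**Figure D3:**
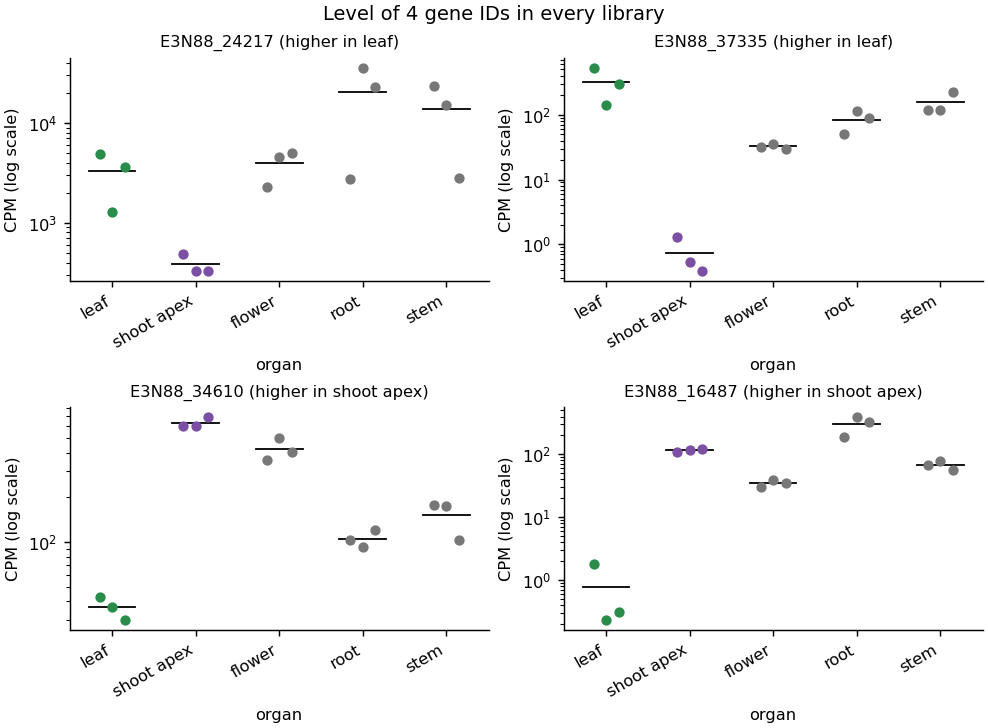
CPM on a log scale in each of the 15 libraries for the 4 IDs described, with leaf at the left, then shoot apex and the other organs. Points are libraries and lines are organ means. E3N88_24217 and E3N88_37335 have their lowest mean in shoot apex, and E3N88_34610 and E3N88_16487 in leaf.

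Seen over the 5 organs, leaf was the highest for 2510 of the 4657 leaf-higher IDs, 53.9%, beside 18.0% of all IDs tested. Shoot apex was the highest organ for 3212 of the 4948 apex-higher IDs, 64.9%, beside 25.9% of all tested. These shares describe genes that were picked for a difference between both organs, and the shares of the 2 directions were not tested against each other. Root was the highest organ for 1106 leaf-higher IDs, 23.7%, and for 498 apex-higher IDs, 10.1%, beside 22.9% of all tested. Flower was the highest for 414 leaf-higher IDs, 8.89%, and 803 apex-higher IDs, 16.2%, beside 17.9% of all tested.

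The other organs lined up with leaf or with apex in different ways. An organ was counted as nearer to the one whose log2(mean CPM + 0.5) was closer. For leaf-higher IDs, flower was nearer to shoot apex for 61.5%, root for 53.2% and stem for 52.5%. The largest class, 1401 IDs, had flower, root and stem all nearer to shoot apex, so that leaf stood alone. In 888 IDs all 3 were nearer to leaf, so that shoot apex stood alone as low, and in 692 root and stem sided with leaf. Median levels of the leaf-higher IDs were 27.4 CPM in leaf, 5.88 in shoot apex, 12.4 in flower, 13.1 in root and 13.95 in stem.

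For apex-higher IDs, flower was nearer to shoot apex for 51.8%, but root only for 27.1% and stem for 29.97%. Over all IDs tested these shares were 54.2, 42.3 and 41.5%. In 1743 IDs, 35.2%, all 3 organs were nearer to leaf, so that shoot apex stood alone as high. In a further 1265, 25.6%, root and stem sided with leaf and flower with shoot apex. Leaf stood alone as low in 630. Median levels of the apex-higher IDs were 3.67 CPM in leaf, 17.8 in shoot apex, 9.83 in flower, 4.74 in root and 5.30 in stem. Flower was thus the organ closest to the apex level in the median.

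**Figure D4:**
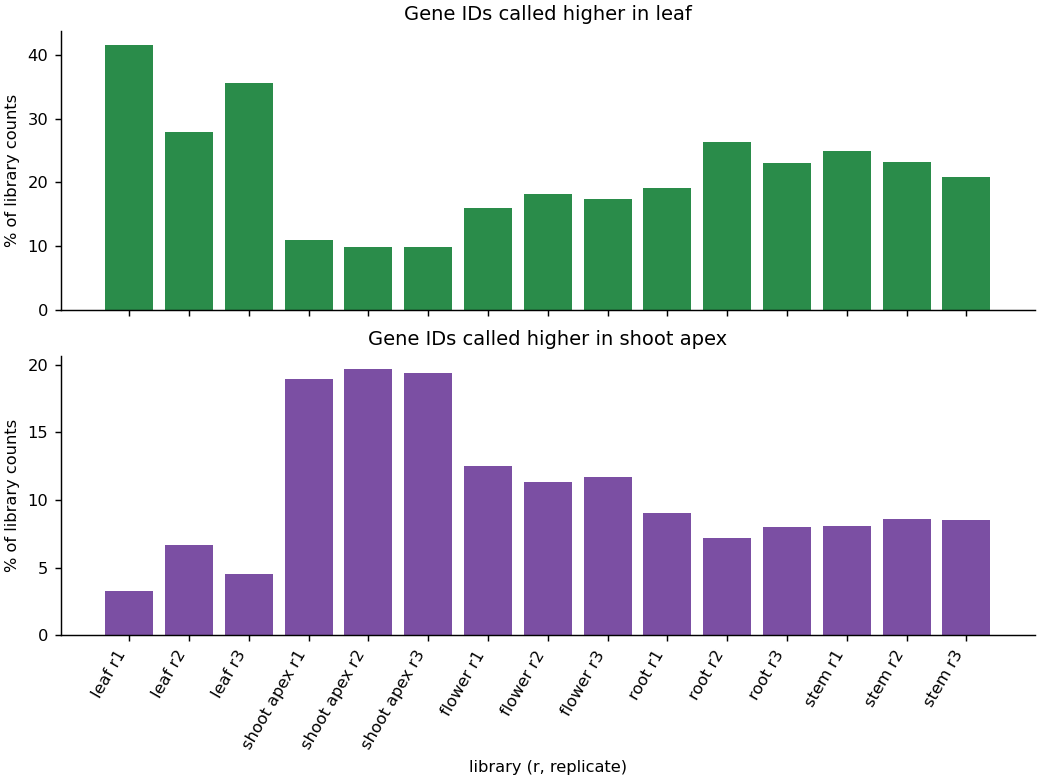
Percent of the counts of each of the 15 libraries held by IDs called higher in leaf (upper panel) and by IDs called higher in shoot apex (lower panel), one bar per library. Leaf replicate 2 holds the smallest leaf share above, 27.9%, and the largest leaf share below, 6.67%. The other organs lie between leaf and shoot apex in both panels.

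The leaf libraries differed in how far they stood from shoot apex. Leaf replicate 2 was the nearest. It was the lowest of the leaf libraries for 68.8% of leaf-higher IDs and the highest for 63.3% of apex-higher IDs, beside 40.6 and 39.4% over all IDs tested. To measure this on genes not picked with the library itself, each library was left out in turn and the genes called without it were read in it. Genes called higher in leaf without leaf replicate 1 had a median log2 difference of 2.02 between that library and the mean of the apex libraries. For leaf replicate 2 the same median was 1.20, and for leaf replicate 3 it was 1.72. The 3 medians are over 4062, 5370 and 4472 genes, so the gene sets differ as well as the library. The apex libraries still took part in picking the genes.

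The left-out library mostly took the side of its label. Of 5370 genes called higher in leaf without leaf replicate 2, 4877 or 90.8% lay above all 3 apex libraries in it, and 94.95 and 96.7% did so for leaf replicates 1 and 3. For apex-higher genes, 96.1 to 99.5% lay below all 3 apex libraries in the leaf library left out. Genes not called but with the same sign did so less often, at 48.4 to 71.0% for the direction of leaf and 65.2 to 77.2% for that of shoot apex. With an apex library left out, 96.2 to 97.3% of leaf-higher genes and 99.1 to 99.9% of apex-higher genes kept it on the right side of all 3 leaf libraries. For genes not called but with the same sign, these shares were 46.0 to 46.8% and 70.0 to 73.1%. The number of calls moved with the library left out. It was 10698 (38.6%; 19.5% higher in leaf and 19.1% in shoot apex) without leaf replicate 2 and 8883 (32.1%; 16.2% and 15.8%) without leaf replicate 3. Without apex replicate 1, 32.3% were called, 17.2% higher in leaf and 15.1% in shoot apex. Without apex replicate 2, 31.4% were called, 16.8% higher in leaf and 14.6% in shoot apex. Without apex replicate 3, 31.9% were called, 16.7% higher in leaf and 15.2% in shoot apex.

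Leaf replicate 1 held flower transcripts at a higher level than the other leaf libraries, in which 38 and 39 of the 114 IDs described next had a read. A set of 114 IDs was picked without the leaf libraries, by a flower mean of 50 CPM or more and means below 1 CPM in each of stem, root and shoot apex. Its summed level was 5.40, 0.223 and 0.268% of the flower sum in leaf replicates 1, 2 and 3, against 0.0973, 0.0986 and 0.0898% in the apex replicates. Of the 114, 63 were called higher in leaf than in shoot apex, 55.3% beside 17.2% of all genes tested, and 0 were called higher in shoot apex. Without leaf replicate 1, 7 were called higher in leaf and 8 in shoot apex, beside 14.7 and 15.7% of all genes tested in that fit. Without leaf replicate 2, 100 were called higher in leaf, beside 19.5% of all genes tested. The picking fixed a low level in shoot apex and so bears on the direction.

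With shoot apex left out of the definition, the set had 142 IDs, a choice made after the data were seen. Of these, 67 were called higher in leaf and 5 in shoot apex with all libraries, beside 17.2 and 18.3% of all genes tested. The 67 were 47.2% of the set. Without leaf replicate 1, 9 were called higher in leaf and 22 in shoot apex. The shares over all genes tested in that fit were 14.7 and 15.7%.

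The flower transcripts were a small part of all leaf calls. The 63 IDs were 1.35% of the 4657 leaf-higher calls. Without leaf replicate 1, 807 or 17.3% of the leaf-higher calls were lost, and 56 of these were in the flower set. For 268 of the lost calls the fitted fold in favour of leaf was still at least 2. Flower was the highest organ for 18.8% of the lost IDs, beside 8.89% of all leaf-higher IDs. Leaf replicate 1 was the highest leaf library for 739 of the 807, and for 64.9% of all leaf-higher IDs. The 807 were picked by leaving that library out, which favours this order.

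Shoot apex replicate 1 stood apart in another set of genes, which shared 0 IDs with the flower set. Its 114 low IDs had a median of 1.46 CPM in apex replicate 1, against 14.3 and 14.4 CPM in apex replicates 2 and 3. The same IDs, picked on apex libraries alone, were also lower in leaf replicate 1, with a median of 7.79 CPM against 34.0 and 20.1 CPM in leaf replicates 2 and 3. Leaf replicate 1 was below both other leaf libraries for 103 of the 114, 90.4%, beside 41.6% of all IDs tested. Stem was the highest organ for 61 of them, leaf for 26 and root for 22. With all libraries, 29 were called higher in leaf, 25.4% beside 17.2% of all tested, and 0 higher in shoot apex. The picking fixed a low value in 1 apex library and so bears on the direction. Without apex replicate 1, 25 were called higher in leaf and 4 in shoot apex. The shares over all genes tested in that fit were 17.2 and 15.1%. The part of either set in the other results was not tested.

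**Figure D5:**
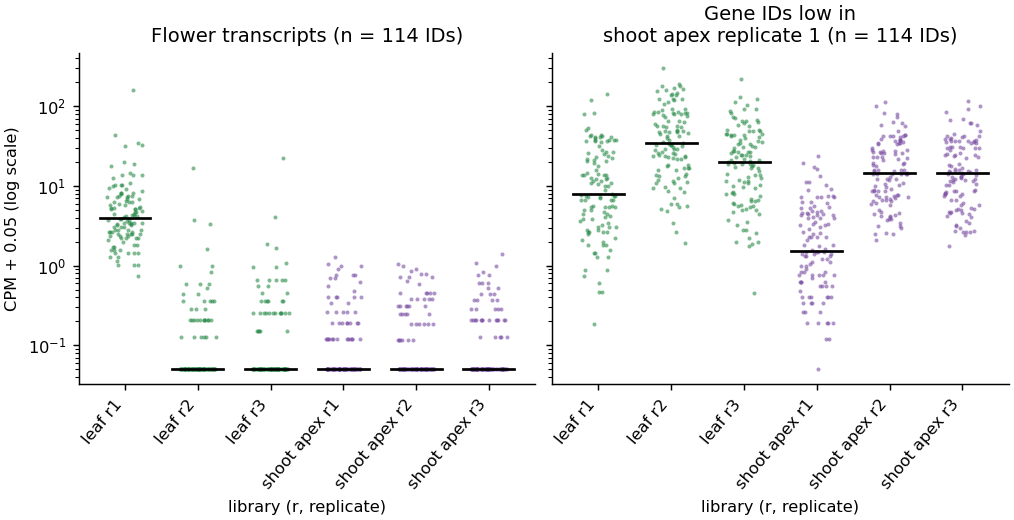
CPM plus 0.05 on a log scale in the 3 leaf and 3 shoot apex libraries, for the 114 flower transcripts (left) and the 114 IDs low in shoot apex replicate 1 (right). Points are IDs and lines are medians. In the left panel the median is above 0 CPM in leaf replicate 1 alone, while single IDs are high in the other leaf libraries too. In the right panel the median is lowest in replicate 1 of each organ, and 103 of the 114 IDs are lower in leaf replicate 1 than in both other leaf libraries.

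Leaf-higher genes formed longer runs of consecutive locus tags than apex-higher genes. A run was taken as IDs with consecutive numbers that were all called in 1 direction, and the rule was made after values had been seen. There were 14 runs of 5 or more IDs higher in leaf, holding 83 IDs, and 1 such run of 5 IDs higher in shoot apex. For single pairs of neighbouring numbers the directions were closer to each other. After a leaf-higher ID, the next number was also leaf-higher in 25.5% of pairs, beside 17.2% of all tested. After an apex-higher ID, the next was also apex-higher in 24.8%, beside 18.3%. Whether consecutive tags lie side by side in the genome was not checked.

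The longest run, singled out after its values were seen, covers the 10 IDs E3N88_25328 to E3N88_25337. Summed over the run, leaf replicates 1, 2 and 3 were at 733, 217 and 615 CPM, against 37.3, 26.2 and 25.8 CPM in apex replicates 1, 2 and 3. The log2 fold changes ran from 2.55 to 6.60, and 9 or 10 of the IDs stayed called when any 1 of the 6 libraries was left out. The same sum was 2081, 641 and 75.8 CPM in stem replicates 1, 2 and 3, and 119, 623 and 334 CPM in root replicates 1, 2 and 3. The next longest run, E3N88_18364 to E3N88_18372, had 9 IDs and was likewise highest in stem replicate 1, at 725 CPM, against 48.0 CPM in stem replicate 3. Its leaf sums were 249, 110 and 250 CPM, and its apex sums 16.3, 11.2 and 9.20 CPM.

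A further set of IDs was built on E3N88_24217, by a rule made after values had been seen. Over the 9 flower, root and stem libraries, centred within each organ, 32 other IDs followed E3N88_24217 with a correlation over 0.95. An SD of at least 0.5 was also required, which was not required of all IDs tested. The correlations rest on 9 libraries and are a description. No ID of the 2 long runs was among the 32, but 5 of the 33 IDs with E3N88_24217 included lay in runs of 5 or more. Correlations of the run members were spread from -0.12 to 0.94 in the longest run and from -0.11 to 0.94 in the next. In each of the 2 runs, 3 IDs had a correlation over 0.9. Leaf and apex libraries entered the choice of E3N88_24217, and through it that of the 32, though not the correlations. The calls among the 32 therefore describe the set and are no independent test. Of the 32, 16 were called higher in leaf, 50% beside 17.2% of all tested, and 2 higher in shoot apex. Their median log2 fold change was 1.65, beside -0.06 over all genes. They took 0.656, 0.254 and 0.539% of the counts in leaf replicates 1, 2 and 3, and 0.122, 0.108 and 0.102% in apex replicates 1, 2 and 3. In root replicate 2 they took 4.65%, and in stem replicate 1 3.30%. Shoot apex had the 3 lowest shares of the 15 libraries.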

How the data were processed

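The deposited table holds unnormalized read counts, 1 row for each gene ID and 1 column for each of 15 libraries. The submitters' processing notes name HISAT2 as aligner. The sources used here give neither its version nor the counter, build or annotation, nor how strand and multiply mapped reads were treated, so counts of near-identical, overlapping or antisense genes are uncertain. The analysis used R 4.3.3 with edgeR 4.0.16. The filterByExpr filter left 27055 IDs with 99.9% of counts, which were scaled by TMM and fitted with 1 term per organ over all 15 libraries. The log2 fold change is leaf over shoot apex from the quasi-likelihood F test, with Benjamini-Hochberg adjustment over all genes tested. The procedure was tested on simulated data. Library totals of 7952050 to 12817396 counts set the precision in both organs, and per-gene intervals are those of the fit. Alternatives used RLE factors, plain totals, DESeq2 1.42.0, limma-voom 3.58.1 with library weights, edgeR's glmTreat, a fit to 6 libraries, no filter, a replicate block and leaving out single libraries. No pair of leaf or of apex replicates agreed within sampling noise (chi-square per degree of freedom of 2.07 or more). The comparison, gene groups and naming rule were chosen with earlier results of these data known. The rule gives 2 IDs in each direction where no names are at hand. Planned gene lists were not matched, since no gene names were used here.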

Additional observations from a re-analysis of the deposited data

How the results depend on the processing

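The 4 IDs given in full kept their direction and their call under all 14 alternatives run for each. The test against a fold of 2 (glmTreat) was not among these 14. Their adjusted p-values ranged from 6.83e-08 to 0.0404 for E3N88_24217, 1.87e-60 to 0.000193 for E3N88_37335, 1.3e-59 to 9.18e-05 for E3N88_34610 and 5.88e-54 to 0.000169 for E3N88_16487 (edgeR, DESeq2 or limma). The fit with the replicate block gave 9284 calls, 4475 higher in leaf and 4809 in shoot apex. Deviations of same-numbered leaf and apex libraries correlated at 0.17, 0.22 and -0.07 for replicates 1, 2 and 3. Those of unlike-numbered libraries correlated at -0.25 to 0.12, below the values of replicates 1 and 2. The labels do not say that the numbers pair libraries, so the main fit used no block. Whether the numbers mark pairs was not tested. Leaving out single libraries gave 8444 to 10698 calls, 4091 to 5409 higher in leaf and 4032 to 5289 in shoot apex, and 6048 to 7999 genes within 2-fold. A test against a fold of 2 (glmTreat) gave 5378 calls, 2694 higher in leaf and 2684 in shoot apex. Leaf-higher genes made up 48.5% of the calls, and this moved to 52.4% with RLE factors, 36.9% with plain totals, 52.3% with DESeq2, 46.1% with limma-voom, 51.4% in the fit to 6 libraries, 50.1% with glmTreat, and 53.7% without replicate 1 of both organs, a choice made after the data were seen. Without single libraries it was 48.4 to 53.5%. Limma-voom placed 10875 genes within 2-fold. The count of IDs detected in leaf but not in shoot apex was 70 at 0.5 CPM, 9 at 5 CPM, 130 when up to 3 apex reads were allowed, and 44 to 86 without single libraries. For shoot apex these counts were 129, 17, 187 and 71 to 141. Flower transcripts called higher in leaf numbered 7 to 100 without single leaf libraries, the lowest without replicate 1 and the highest without replicate 2. The cause of these shifts was not tested. The share of counts in the most abundant IDs stayed higher in leaf with the 10 or the 1000 most abundant IDs, by 1.84 and 9.88 percentage points, beside 6.45 with 100.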
